A study of Mus musculus with 11 samples.

Results

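The Hox genes described here are the transcripts named Hoxa, Hoxb, Hoxc or Hoxd with a number from 1 to 13 and nothing after it. There were 39 of them among the 24016 genes of the deposited table, 11 in the HoxA cluster on chromosome 6, 10 in HoxB on chromosome 11, 9 in HoxC on chromosome 15 and 9 in HoxD on chromosome 2. They were measured by polyA RNA sequencing in 11 libraries of mouse embryonic stem (ES) cells of the J1 line, strain 129S4/SvJae, which all grew on irradiated mouse embryonic fibroblasts as feeders in medium with serum and LIF. The 9 groups were WT, the parent lines labelled TKO and DKO, and each parent with the DNA methyltransferase (Dnmt) isoform Dnmt3a1, Dnmt3a2 or Dnmt3b1 put back, written as TKO+Dnmt3a1 and so on. Each TKO line with a Dnmt3a isoform had 2 libraries, here replicates 1 and 2. A line stands for its genotype, the other groups had 1 library each, and the labels do not say whether the paired libraries came from separate cultures, so that p-values measure only the spread between these libraries.

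Hox genes encode homeodomain transcription factors that give cells along the head-to-tail axis and in the limbs their regional identity. Within a cluster the genes are switched on in the order in which they lie, from the anterior genes with low paralog numbers to the posterior genes with high ones, and in ES cells their CpG-rich promoters are held nearly silent by Polycomb complexes. Fibroblasts, in contrast, keep a Hox pattern from the place in the body they came from, so that feeder cells can bring Hox transcripts of their own.

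Before the values, the promoter sequences of 4 members with unlike patterns show what Hox promoters look like. They are the 250 bases upstream of the start site, 5′ to 3′ on the gene's strand, from RefSeq (GRCm38.p6), with each CpG, the dinucleotide these enzymes methylate, in capitals. Hoxb1 (chr11:96365508-96365757, plus strand, 7 CpG) and Hoxa5 (chr6:52204588-52204837, minus strand, 28 CpG) are shown because both stood higher in the DKO lines with an enzyme put back than in DKO. Hoxd8 (chr2:74704365-74704614, plus strand, 6 CpG) is shown as a member that followed the fibroblast transcripts, and Hoxd1 (chr2:74762730-74762979, plus strand, 24 CpG) as one that did not.
Hoxb1: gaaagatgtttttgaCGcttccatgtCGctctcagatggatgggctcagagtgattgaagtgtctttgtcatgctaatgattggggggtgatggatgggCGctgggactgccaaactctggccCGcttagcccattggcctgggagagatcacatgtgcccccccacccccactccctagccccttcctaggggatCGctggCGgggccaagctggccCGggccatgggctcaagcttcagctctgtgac
Hoxa5: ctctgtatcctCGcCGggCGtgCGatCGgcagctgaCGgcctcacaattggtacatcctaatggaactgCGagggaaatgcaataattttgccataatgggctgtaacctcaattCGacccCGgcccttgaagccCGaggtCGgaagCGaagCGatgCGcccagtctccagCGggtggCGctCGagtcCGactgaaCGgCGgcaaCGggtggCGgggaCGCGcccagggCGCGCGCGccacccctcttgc
Hoxd8: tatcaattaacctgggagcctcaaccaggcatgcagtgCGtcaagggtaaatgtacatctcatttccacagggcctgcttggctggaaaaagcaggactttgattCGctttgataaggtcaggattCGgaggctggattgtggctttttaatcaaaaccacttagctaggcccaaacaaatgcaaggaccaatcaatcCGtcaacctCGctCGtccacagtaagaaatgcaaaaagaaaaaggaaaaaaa
Hoxd1: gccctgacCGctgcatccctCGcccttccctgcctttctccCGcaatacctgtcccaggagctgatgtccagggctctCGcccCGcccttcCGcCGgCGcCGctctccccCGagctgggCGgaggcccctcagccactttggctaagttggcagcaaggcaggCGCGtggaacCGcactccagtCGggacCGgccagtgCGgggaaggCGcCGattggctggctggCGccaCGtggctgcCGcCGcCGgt

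Of the 39 members, 22 matched an entry of the promoter table, with 24 windows of 250 bases. CpG number per window ran from 2 to 35 with a median of 12.5, against a median of 6 over all 32851 windows of the table, of which 31.5% held at least 12.5. Median GC content was 58.6% in the Hox windows and 52.4% in all windows. The motifs searched, on both strands, were AGGTCA (the half-site of retinoic acid receptors), TTTATG (bound by Cdx factors) and TGATNNAT (bound by Hox and Pbx together), and letters shared by 2 motifs counted for both. AGGTCA was found in 6 Hox windows (25% against 14% of all windows), those of Hoxb4, Hoxc4, Hoxd3, Hoxd4, Hoxd8 and Hoxd10. TTTATG was found in 5 (20.8% against 10.8%), those of Hoxa7, Hoxb8, Hoxd3, Hoxd4 and Hoxd11, and TGATNNAT in 4 (16.7% against 7.68%), those of Hoxa2, Hoxb1, Hoxb8 and Hoxd11. A match is a stretch of letters and was not compared with binding or methylation, which the table does not hold.

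Values are RPKM, reads scaled to transcript length and to sequencing depth. Read depth recovered from the spacing of the RPKM values ran from 21.74 to 32.96 M reads per library, at which 1 read in a transcript of 2 kb is 0.0152 to 0.023 RPKM. All 12 ES cell markers were at 1 RPKM or more in every library. The 30 fibroblast markers summed to between 104.6 RPKM (DKO+Dnmt3a2) and 1877.6 RPKM (TKO+Dnmt3b1), and the 15 measured macrophage markers to between 13.1 RPKM, with 6 of them at 0, and 291.3 RPKM in the same libraries. Neural markers summed to between 30.4 and 95.5 RPKM and mesoderm markers to between 3.1 and 17.9 RPKM. Dnmt1 stood at 70.99 RPKM in WT, 55.9 to 74.5 in the DKO family and 6.73 to 12.4 in the TKO family. For Dnmt3a the level was 4.24 RPKM in TKO, 3.63 in DKO and 22.7 in WT, and for Dnmt3b 45.3, 5.68 and 25.0 RPKM. These are levels over a whole transcript, so that a transcript still made from a disrupted gene counts in full.

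Hox transcripts were scarce in every library. The median of the members' mean levels was 0.797 RPKM, against 2.9 RPKM over all genes above 0 in at least 1 library, and 13 of the 39 had a mean of 1 RPKM or more. No member reached 1 RPKM in all 11 libraries, 28 reached it in at least 1, and 11 stayed below it everywhere. The 11 were Hoxa2, Hoxa3, Hoxa6, Hoxa13, Hoxb1, Hoxc12, Hoxd1, Hoxd3, Hoxd10, Hoxd11 and Hoxd12, of which Hoxa6 came highest at 0.809 RPKM.

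The 4 clusters were fullest in the same library. TKO+Dnmt3b1 held 26 members at 1 RPKM or more and DKO+Dnmt3b1 24, against 2 in DKO+Dnmt3a2, 5 in DKO, 7 in WT and 7 to 17 in the other libraries. The summed RPKM of HoxC was 34.8 in TKO+Dnmt3b1 and 3.07 in DKO+Dnmt3a2, its highest and lowest libraries. HoxB ran from 4.72 RPKM in DKO to 27.8 RPKM in TKO+Dnmt3b1, and HoxA from 3.4 to 14.15 RPKM in the same libraries. HoxD ran from 2.09 RPKM in DKO+Dnmt3a2 to 10.5 RPKM in TKO+Dnmt3b1.

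**Figure D1:**
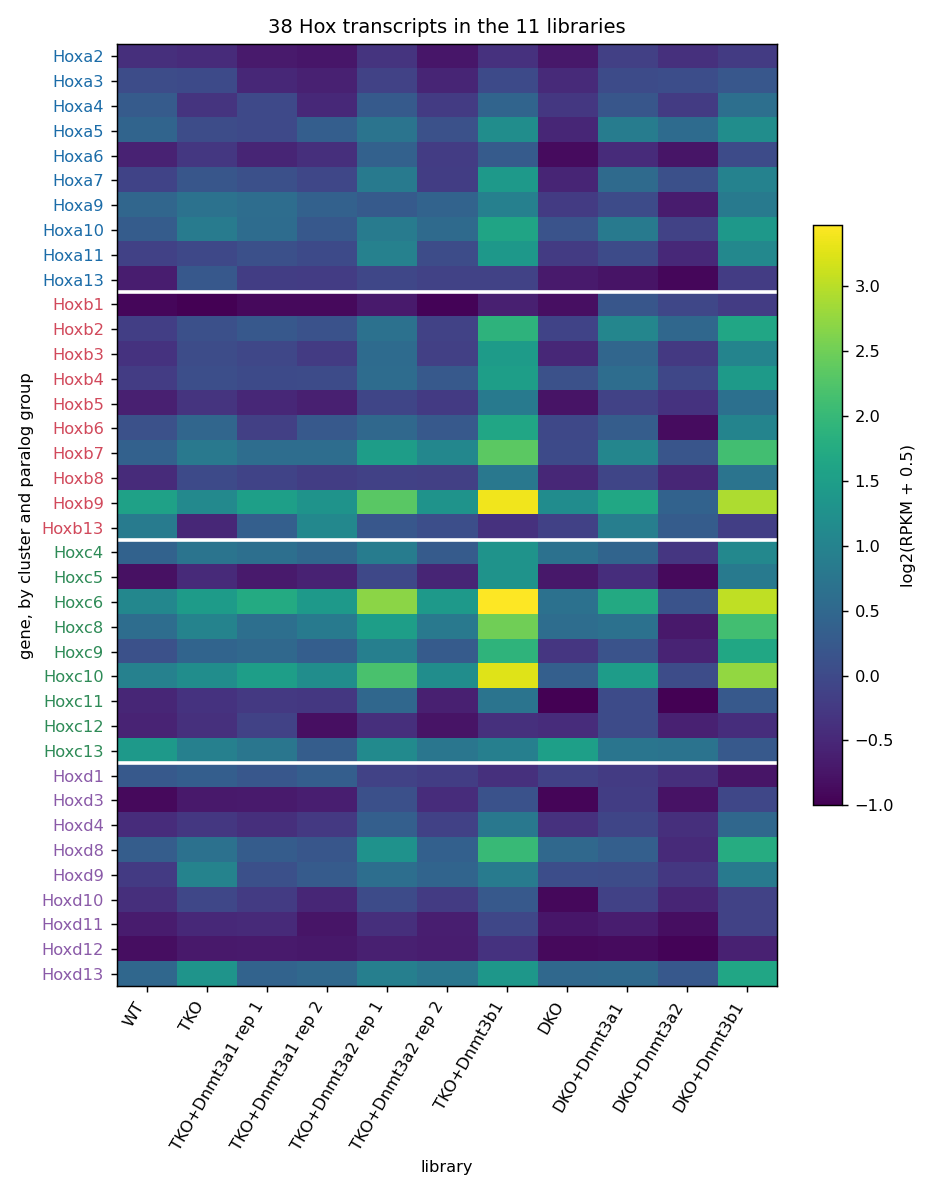
Levels of 38 of the 39 Hox transcripts (lines, ordered by cluster and paralog group) in the 11 libraries (columns), as log2(RPKM + 0.5) on the colour scale. The columns of TKO+Dnmt3b1 and DKO+Dnmt3b1 are brightest from the middle of HoxB to HoxC, and the lightest fields are Hoxc6, Hoxb9 and Hoxc10.

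In the sentences on single members, 3 values for Dnmt3a1 or Dnmt3a2 are those of the TKO line, replicates 1 and 2, and then of the DKO line. The most abundant members were Hoxc6, Hoxc10 and Hoxb9, which pattern the thoracic and lumbar parts of the trunk. Hoxc6 stood at 10.6 and 7.76 RPKM in the TKO and DKO lines with Dnmt3b1, 2.83, 2.13 and 2.77 with Dnmt3a1, 5.97, 2.16 and 0.609 with Dnmt3a2, 2.22 and 1.1 in the TKO and DKO parents, and 1.6 in WT. Hoxc10, a regulator of lumbar motor neuron identity, stood at 9.07 and 6.23 RPKM in the TKO and DKO lines with Dnmt3b1, 2.33, 1.77 and 2.28 with Dnmt3a1, 4.08, 1.78 and 0.524 with Dnmt3a2, 1.79 and 0.772 in the TKO and DKO parents, and 1.46 in WT. For Hoxb9 the levels were 9.92 and 7.1 RPKM in the TKO and DKO lines with Dnmt3b1, 2.37, 1.96 and 2.66 with Dnmt3a1, 4.53, 1.96 and 0.82 with Dnmt3a2, 1.66 and 1.75 in the TKO and DKO parents, and 2.43 in WT. In all 3 genes the Dnmt3b1 libraries were the highest, the first TKO+Dnmt3a2 library came next and DKO+Dnmt3a2 was the lowest.

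Hoxc5, Hoxc8 and Hoxc9 were likewise highest with Dnmt3b1 and lowest in DKO+Dnmt3a2. Hoxc8, which patterns brachial and thoracic segments, was found at 5.16 and 3.82 RPKM in the TKO and DKO lines with Dnmt3b1, 1.04, 1.29 and 1.09 with Dnmt3a1, 2.33, 1.25 and 0.117 with Dnmt3a2, 1.51 and 1 in the TKO and DKO parents, and 1.01 in WT. Hoxc9, a repressor of forelimb motor neuron genes in the thoracic cord, was at 3.25 and 2.65 RPKM in the TKO and DKO lines with Dnmt3b1, 0.926, 0.769 and 0.601 with Dnmt3a1, 1.42, 0.724 and 0.181 with Dnmt3a2, 0.864 and 0.313 in the TKO and DKO parents, and 0.584 in WT. Hoxc5 was at 1.96 and 1.29 RPKM in the TKO and DKO lines with Dnmt3b1, 0.129, 0.176 and 0.247 with Dnmt3a1, 0.477, 0.187 and 0.038 with Dnmt3a2, 0.223 and 0.111 in the TKO and DKO parents, and 0.078 in WT. Its mean over the Dnmt3b1 libraries was 8.8 times its mean over the other 9, the largest such ratio among the members. Hoxc4, the most anterior gene of the cluster, was at 1.95 and 1.63 RPKM in the TKO and DKO lines with Dnmt3b1, 1.05, 0.908 and 0.86 with Dnmt3a1, 1.33, 0.719 and 0.314 with Dnmt3a2, 1.15 and 1.08 in the TKO and DKO parents, and 0.828 in WT, so that its Dnmt3b1 libraries lay above the others by less.

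Not all of HoxC had this order. Hoxc12 was highest in DKO+Dnmt3a1, at 0.519 RPKM, and Hoxc11 was higher in TKO+Dnmt3a2 replicate 1 (0.902 RPKM) than in DKO+Dnmt3b1 (0.694 RPKM). Hoxc13, which hair and nails need, stood at 1.4 and 0.682 RPKM in the TKO and DKO lines with Dnmt3b1, 1.18, 0.74 and 1.16 with Dnmt3a1, 1.69, 1.19 and 1.12 with Dnmt3a2, 1.44 and 2.37 in the TKO and DKO parents, and 2.17 in WT. DKO and WT were the highest and DKO+Dnmt3b1 the lowest, while for Hoxc9 and Hoxc10 the last of these was among the highest.

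In HoxB every gene from Hoxb2 to Hoxb9 had both Dnmt3b1 libraries above all others. Hoxb7 was at 4.55 and 3.86 RPKM in the TKO and DKO lines with Dnmt3b1, 1.01, 1.02 and 1.56 with Dnmt3a1, 2.29, 1.59 and 0.628 with Dnmt3a2, 1.26 and 0.503 in the TKO and DKO parents, and 0.816 in WT. Hoxb6 was at 2.61 and 1.53 RPKM in the TKO and DKO lines with Dnmt3b1, 0.402, 0.682 and 0.751 with Dnmt3a1, 0.92, 0.692 and 0.052 with Dnmt3a2, 0.893 and 0.483 in the TKO and DKO parents, and 0.576 in WT. Hoxb8 was at 1.22 and 1.15 RPKM in the TKO and DKO lines with Dnmt3b1, 0.434, 0.374 and 0.45 with Dnmt3a1, 0.41, 0.401 and 0.196 with Dnmt3a2, 0.503 and 0.203 in the TKO and DKO parents, and 0.23 in WT. These central genes spanned a wide range within DKO+Dnmt3a2, where Hoxb6 was nearly lost and Hoxb7 remained above its DKO level.

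The anterior HoxB genes act in the hindbrain and, for Hoxb4, in blood stem cells. Hoxb2 was at 3.21 and 2.63 RPKM in the TKO and DKO lines with Dnmt3b1, 0.679, 0.59 and 1.58 with Dnmt3a1, 1.09, 0.427 and 0.914 with Dnmt3a2, 0.561 and 0.433 in the TKO and DKO parents, and 0.392 in WT. Hoxb3 was at 2.22 and 1.53 RPKM in the TKO and DKO lines with Dnmt3b1, 0.469, 0.354 and 0.889 with Dnmt3a1, 0.985, 0.399 and 0.337 with Dnmt3a2, 0.527 and 0.208 in the TKO and DKO parents, and 0.287 in WT. Hoxb4 was at 2.34 and 2.22 RPKM in the TKO and DKO lines with Dnmt3b1, 0.499, 0.514 and 1.02 with Dnmt3a1, 0.997, 0.684 and 0.472 with Dnmt3a2, 0.548 and 0.575 in the TKO and DKO parents, and 0.367 in WT. DKO+Dnmt3a1 was the highest library outside the Dnmt3b1 lines for Hoxb2 and Hoxb4, and TKO+Dnmt3a2 replicate 1 for Hoxb3. Hoxb5, the next gene, was at 1.29 and 1.07 RPKM in the TKO and DKO lines with Dnmt3b1, 0.21, 0.158 and 0.419 with Dnmt3a1, 0.458, 0.347 and 0.292 with Dnmt3a2, 0.301 and 0.088 in the TKO and DKO parents, and 0.16 in WT, with DKO as its lowest library.

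The ends of HoxB behaved unlike its middle. Hoxb1, which sets the identity of a single hindbrain segment and is a direct target of retinoic acid, was at 0.153 and 0.363 RPKM in the TKO and DKO lines with Dnmt3b1, 0.043, 0.043 and 0.65 with Dnmt3a1, 0.125, 0.018 and 0.466 with Dnmt3a2, 0 and 0.065 in the TKO and DKO parents, and 0.029 in WT. The 3 DKO lines with an enzyme put back thus lay at 0.363 RPKM or more and every other library at 0.153 RPKM or less. These levels correspond to an estimated 33.7, 27.8 and 24.8 reads in DKO+Dnmt3a1, DKO+Dnmt3a2 and DKO+Dnmt3b1, and to between 0 and 6.9 reads elsewhere. Hoxb1 stayed below the filter of 1 RPKM and was not tested. Hoxb13, the most posterior gene and known from prostate and tail, was at 0.277 and 0.391 RPKM in the TKO and DKO lines with Dnmt3b1, 0.775, 1.62 and 1.39 with Dnmt3a1, 0.662, 0.558 and 0.738 with Dnmt3a2, 0.203 and 0.409 in the TKO and DKO parents, and 1.32 in WT. TKO and TKO+Dnmt3b1 were its lowest libraries, and both Dnmt3b1 libraries lay below all 6 Dnmt3a libraries.

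In HoxA the sums were lower than in HoxB and HoxC in the Dnmt3b1 libraries. Hoxa10, a gene of uterus and limb development, was at 2.54 and 2.1 RPKM in the TKO and DKO lines with Dnmt3b1, 1, 0.681 and 1.3 with Dnmt3a1, 1.3, 0.965 and 0.416 with Dnmt3a2, 1.32 and 0.605 in the TKO and DKO parents, and 0.732 in WT. Both Dnmt3b1 libraries were its highest and DKO+Dnmt3a2 its lowest.

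The neighbours of Hoxa10 differed from each other. Hoxa9, known from blood progenitors and leukaemia, was at 1.43 and 1.3 RPKM in the TKO and DKO lines with Dnmt3b1, 1.01, 0.805 and 0.519 with Dnmt3a1, 0.71, 0.837 and 0.136 with Dnmt3a2, 1.11 and 0.362 in the TKO and DKO parents, and 0.895 in WT. Hoxa11, which shapes the forearm, was at 2.12 and 1.62 RPKM in the TKO and DKO lines with Dnmt3b1, 0.56, 0.498 and 0.52 with Dnmt3a1, 1.46, 0.527 and 0.212 with Dnmt3a2, 0.482 and 0.352 in the TKO and DKO parents, and 0.412 in WT. Hoxa5, needed for lung development, was at 1.79 and 1.78 RPKM in the TKO and DKO lines with Dnmt3b1, 0.495, 0.768 and 1.33 with Dnmt3a1, 1.16, 0.585 and 0.977 with Dnmt3a2, 0.527 and 0.197 in the TKO and DKO parents, and 0.859 in WT. Both Dnmt3b1 libraries were highest for these 3 genes, and the lowest was DKO+Dnmt3a2 for Hoxa9 and Hoxa11 and DKO for Hoxa5.

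In HoxD the highest members were Hoxd8 and Hoxd13. Hoxd8 was at 3.55 and 2.92 RPKM in the TKO and DKO lines with Dnmt3b1, 0.739, 0.645 and 0.782 with Dnmt3a1, 1.92, 0.786 and 0.227 with Dnmt3a2, 1.09 and 0.921 in the TKO and DKO parents, and 0.744 in WT. Hoxd13, which shapes the digits, was at 2.07 and 2.64 RPKM in the TKO and DKO lines with Dnmt3b1, 0.836, 0.93 and 0.943 with Dnmt3a1, 1.4, 1.18 and 0.668 with Dnmt3a2, 1.99 and 0.918 in the TKO and DKO parents, and 0.906 in WT. Hoxd4, a retinoic acid target of the hindbrain, was at 1.23 and 0.909 RPKM in the TKO and DKO lines with Dnmt3b1, 0.259, 0.341 and 0.45 with Dnmt3a1, 0.781, 0.415 and 0.257 with Dnmt3a2, 0.327 and 0.276 in the TKO and DKO parents, and 0.238 in WT. TKO was close to the Dnmt3b1 lines for Hoxd13 but not for Hoxd8 or Hoxd4, and DKO+Dnmt3a2 was lowest for Hoxd8 and Hoxd13. Hoxd1 had another order, from 0.758 RPKM in TKO+Dnmt3a1 replicate 2 and 0.756 RPKM in TKO down to 0.268 RPKM in TKO+Dnmt3b1, 0.26 RPKM in DKO+Dnmt3a2 and 0.097 RPKM in DKO+Dnmt3b1.

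Hox and fibroblast transcripts were set side by side because the feeder cells were in every culture. The 39 members summed to 87.2 and 68.6 RPKM in the TKO and DKO lines with Dnmt3b1, 27.0, 25.3 and 33.9 with Dnmt3a1, 48.1, 25.8 and 15.1 with Dnmt3a2, 31.2 and 18.4 in the TKO and DKO parents, and 25.9 in WT. The libraries with the 2 highest Hox sums also had the 2 highest fibroblast sums, and the library with the lowest Hox sum had the lowest fibroblast sum. The ratio was not constant. Per 100 RPKM of fibroblast markers the Hox sum was 3.16 RPKM in DKO, 4.64 and 4.82 RPKM in the TKO and DKO lines with Dnmt3b1, 7.55 to 10.38 RPKM in WT, TKO, the TKO+Dnmt3a lines and DKO+Dnmt3a1, and 14.44 RPKM in DKO+Dnmt3a2. DKO and TKO+Dnmt3a2 replicate 1 had fibroblast sums of 583.0 and 583.8 RPKM but Hox sums of 18.4 and 48.1 RPKM. The mean log2 levels of the fibroblast markers were 3.25 and 3.32 in these libraries. Single markers differed both ways, as Col1a1 at 83.1 and 60.2 RPKM and Dcn at 8.94 and 24.9 RPKM, so that equal sums do not mean equal fibroblast RNA. In such bulk samples fewer cells of a type and less RNA per cell cannot be told apart.

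**Figure D2:**
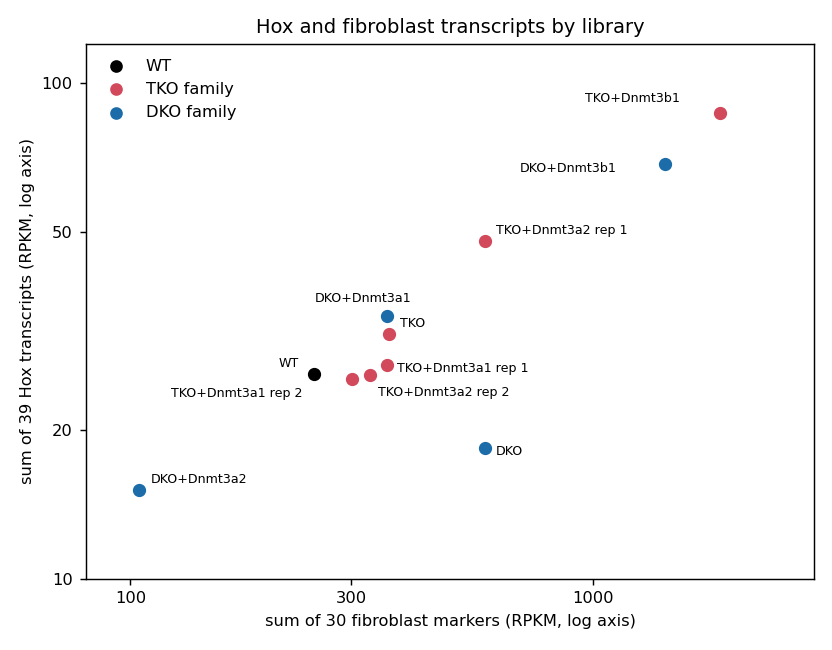
Sum of the 39 Hox transcripts (vertical axis, RPKM) against the sum of 30 fibroblast markers (horizontal axis, RPKM), both on log axes, with 1 point per library coloured by family. The Dnmt3b1 libraries lie at the upper right with Hox sums of 87.2 and 68.6 RPKM, DKO+Dnmt3a2 at the lower left with 15.1 RPKM, and DKO to the right of the other points of its height.

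The TKO and DKO parents were compared with WT to ask what loss of methyltransferases does to Hox transcripts. No member was called in either comparison. Over all 39 members the median difference, in log2(RPKM + 0.5), was 0.25 in TKO (30 higher and 9 lower; all genes 0.06) and -0.15 in DKO (11 higher and 28 lower; all genes 0.01). The comparisons share the single WT library. The lead of TKO depended on the scaling, with 20 of 39 members higher after quantile normalization over all genes above 0 (median 0.01) and 19 with chromosome medians removed (median -0.05), where all 10 HoxB members were lower. Chromosome medians came from genes that reached 1 RPKM. The scale makes differences of low genes smaller, so that this removal can be too large for low members. All 11 HoxA members were lower in DKO than in WT, with a median of -0.44, and stayed so under median ratio scaling, quantile normalization and removal of chromosome medians. All 9 HoxD members were higher in TKO than in WT, with a median of 0.19, but 6 of 9 after quantile normalization. The 28 fibroblast markers tested were mostly higher in both, with medians of 0.48 in TKO and 1.01 in DKO, so that in DKO the 2 lists lay on opposite sides of 0. In TKO other lists moved as well: all 6 neural markers tested were higher (median 0.90), 3 of 4 mesoderm markers were higher (median 1.18) and 11 of 12 ES cell markers were lower (median -0.45). In DKO these medians were 0.61, -0.19 and -0.30. The part of feeder RNA or of other cells in these differences was not tested.

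By limma with Benjamini-Hochberg adjustment over 14229 genes, 0 of the 28 members tested passed an adjusted p of 0.05 in TKO, against 0.344% of all genes, and 3 had an unadjusted p under 0.05, a smaller share than the 17.2% of all genes. They were Hoxd9, a limb gene, at a log2 difference of 1.24 ± 0.33 (SE; 0.347 RPKM in WT and 1.5 RPKM in TKO; limma adjusted p = 0.183), Hoxb13 at -1.37 ± 0.44 (limma adjusted p = 0.223) and Hoxd13 at 0.83 ± 0.32 (limma adjusted p = 0.276). In DKO 0 of 28 passed, against 0% of all genes, and 1 member had an unadjusted p under 0.05, against 8.3% of all genes. Each parent and WT had 1 library, and the spread came from the TKO+Dnmt3a1 and TKO+Dnmt3a2 pairs. Chromosomes 6 and 11, which carry HoxA and HoxB, had medians of 0.48 and 0.52 over all their tested genes in TKO against WT, above the medians of HoxA (0.11) and HoxB (0.28), while chromosomes 15 and 2 stood at 0 and 0.04. The cluster medians include members under the filter, and the scale makes differences of low genes smaller, so that the 2 kinds of median are not alike.

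Putting any of the 3 isoforms back was compared with the 2 parents, with the family as a term of the fit. Hox levels were mostly higher with an enzyme: over all 39 members the median was 0.36 (31 higher and 8 lower; all genes 0.01), all 10 HoxB members and all 11 central members were higher, and HoxD had the smallest median, 0.15. The direction was not shared by all lines, and 38.2% to 49.8% of all genes lay above the parent in single libraries. Most members were above their own parent in TKO+Dnmt3b1 (32 of 39), DKO+Dnmt3b1 (36), DKO+Dnmt3a1 (33) and TKO+Dnmt3a2 replicate 1 (29), and most were below it in TKO+Dnmt3a1 replicates 1 and 2 (25 and 29 lower), TKO+Dnmt3a2 replicate 2 (26) and DKO+Dnmt3a2 (23). None passed the test by limma, 0 of 28 against 3.93% of all genes, while 9 of 28 had an unadjusted p under 0.05, near the 28.2% of all genes, and all 9 were higher (12.3% of all genes). The smallest adjusted p was that of Hoxa5, at 0.94 ± 0.28 (limma adjusted p = 0.0798), followed by Hoxb2 at 0.90 ± 0.28 (limma adjusted p = 0.0928). Hoxc13 was the lowest, at -0.56 ± 0.26 (limma adjusted p = 0.198). The fibroblast markers had a median of 0.14, with 18 of the 28 tested higher.

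The isoforms themselves were compared as Dnmt3b1 against the mean of Dnmt3a1 and Dnmt3a2, over both families. Hox transcripts were higher with Dnmt3b1 in 35 of the 39 members, in all 4 clusters. By the test, 20 of the 28 members tested rose and 1 fell by limma, 21 in all, against 20.7% of all 14229 genes (13.5% higher and 7.17% lower). The largest difference was that of Hoxc6, 1.87 ± 0.45 (limma adjusted p = 0.0218), with Hoxc10 at 1.86 ± 0.39, Hoxb9 at 1.8 ± 0.38 and Hoxc8 at 1.8 ± 0.37. The smallest adjusted p was that of Hoxc5, which rose by 1.64 ± 0.25 (limma adjusted p = 0.00486). Hoxc5 was among the 8 of the 28 tested members that reached 1 RPKM only in Dnmt3b1 libraries and so entered the test through them. Hoxb13 fell by 0.80 ± 0.23 on the log2 scale (limma adjusted p = 0.0391). These changes stood with a rise of all 28 fibroblast markers tested, whose median was 2.49, and of 11 of 13 macrophage markers tested, whose median was 2.37, and with a fall of 7 of 12 ES cell markers, whose median was -0.50. Of the neural markers all 6 tested were higher and 3 rose, with a median of 0.90, beside 0.83 over all 39 Hox members, and of the 4 mesoderm markers tested none passed (median 0.11).

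By cluster, the members that rose were Hoxa9, Hoxa10 and Hoxa11 in HoxA, Hoxb2 to Hoxb9 in HoxB, Hoxc4, Hoxc5, Hoxc6, Hoxc8, Hoxc9 and Hoxc10 in HoxC, and Hoxd4, Hoxd8 and Hoxd13 in HoxD. Over all 39 members, tested or not, the median was 1.61 in HoxC, 1.22 in HoxB, 0.59 in HoxA and 0.56 in HoxD. By position it was 0.55 for the anterior genes (paralog groups 1 to 4), 1.36 for the central genes (5 to 8) and 0.78 for the posterior genes (9 to 13), all against 0.01 over all genes. In each of the 11 central genes the difference was above 0. Within HoxB the differences ran from 0.98 ± 0.20 (Hoxb8) to 1.8 (Hoxb9) among the members that rose, and Hoxb4 stood at 1.23 ± 0.24. Hoxd8 rose by 1.63 ± 0.34, beside 0.82 ± 0.24 for Hoxd4 of the same cluster.

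Of the tested members 7 were not called. Among them Hoxa7 stood at 1.01 ± 0.33 (limma adjusted p = 0.0588), Hoxd9 at 0.73 ± 0.24 (limma adjusted p = 0.0597), Hoxa5 at 0.74 ± 0.29, Hoxa4 at 0.59 ± 0.25 and Hoxc11 at 0.83 ± 0.35. Hoxc13 lay near 0, at -0.14 ± 0.27. Of the 28 tested members 8 reached 1 RPKM only in Dnmt3b1 libraries (Hoxa4, Hoxb3, Hoxb5, Hoxb6, Hoxb8, Hoxc5, Hoxc11 and Hoxd4) and so entered the test through the group in which they were high. With 1 RPKM asked of a library without Dnmt3b1, a filter added later, 13 of 20 members tested rose and 1 fell, against 17.8% of all genes called. Without any filter 20 of the 39 members rose and 2 fell, against 13.9% of all genes called, and 19 of the 21 members called with the filter were among them.

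**Figure D3:**
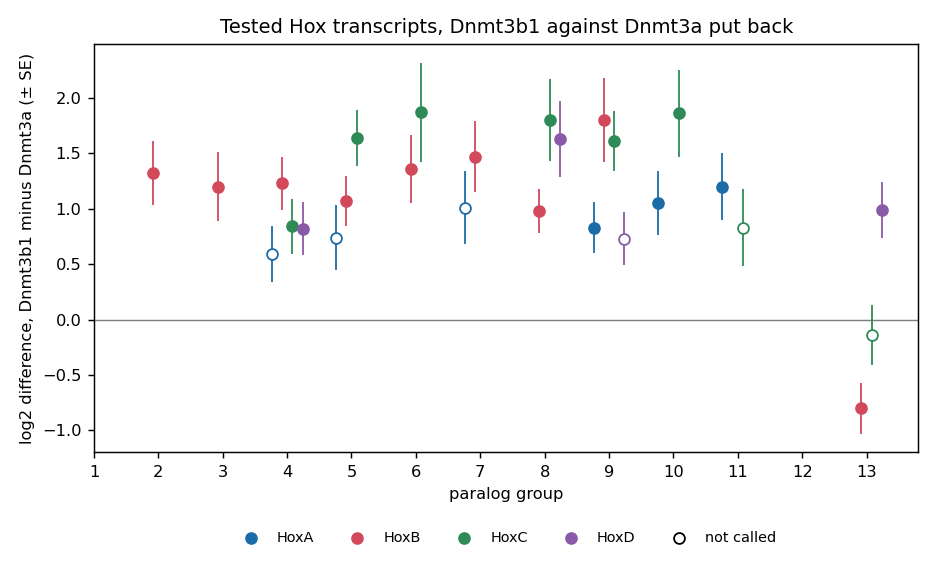
Difference between Dnmt3b1 and Dnmt3a put back (vertical axis, log2 scale, bars are the standard error) for 27 of the 28 tested members by paralog group (horizontal axis) and cluster (colour); filled points passed the limma test. Filled points lie between 0.82 and 1.87 except that of Hoxb13 at -0.80, and the open point of Hoxc13 also lies below 0.

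In single libraries, both Dnmt3b1 libraries lay above each of the other 9 in 25 of 39 members (64.1%), against 14.9% of all genes above 0 in at least 1 library. The 25 were 6 of 12 anterior, 10 of 11 central and 9 of 16 posterior members. TKO+Dnmt3b1 was above TKO in 32 of 39 members, with a median log2 difference of 0.78, and DKO+Dnmt3b1 above DKO in 36, with a median of 1.06. Of all genes 47.6% and 49.8% were higher in these pairs. Fibroblast markers differed by a median of 2.32 and 1.29 in the same pairs. TKO+Dnmt3b1 was above DKO+Dnmt3b1 in 33 of 39 members, all 11 central genes among them, against 56.6% of all genes. Of the 30 fibroblast markers 29 were higher in TKO+Dnmt3b1.

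With the mean log2 level of the fibroblast markers as a covariate none of the 21 members, and no gene of the whole table, was called, Hoxc6 went from 1.87 to -0.09 and Hoxb9 from 1.8 to -0.01, and since the Dnmt3b1 libraries are those with the most fibroblast RNA the enzyme and the feeder RNA cannot be told apart. Leaving out TKO+Dnmt3b1 or DKO+Dnmt3b1 ended all 21 calls, with Hoxc6 at 2.10 and 1.67, and leaving out DKO+Dnmt3a2 left 13.

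Hoxa9 was the 1 member called between the families, although the differences of Hoxc6 (0.76), Hoxc10 (0.73) and Hoxc8 (0.72) were larger. Hoxa9 was higher in the TKO than in the DKO family by 0.63 ± 0.18 (limma adjusted p = 0.0406), 1 of 28 members against 21% of all genes (14.4% higher). Its 6 TKO family libraries lay between 0.71 and 1.43 RPKM and its DKO family libraries at 0.362, 0.519, 0.136 and 1.3 RPKM, so that the families overlapped through DKO+Dnmt3b1. Over all 39 members the median was 0.27, with 30 higher and all 9 HoxD members among them (23 and 7 after quantile normalization, 25 and 9 with chromosome medians removed), against 0.05 over all genes and 0.64 over the fibroblast markers. The call was lost in 8 of the 10 fits that left out 1 library, as without DKO+Dnmt3a2, where Hoxa9 stood at 0.48 (limma adjusted p = 0.2), and was kept without either Dnmt3b1 library. It was also lost with quantile normalization, with chromosome medians removed and with the fibroblast covariate.

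The put-back lines of the DKO family were next set against their own parent. Both DKO+Dnmt3a1 and DKO+Dnmt3a2 lay above DKO in 15 of 39 members, close to the 32.9% of all genes, but the 15 were spread unevenly. Among them were Hoxa2 to Hoxa7, Hoxb1, Hoxb2 and Hoxb3, whereas Hoxa9, Hoxa10, Hoxa11 and Hoxa13 were not. By position they were 8 of 12 anterior, 5 of 11 central and 2 of 16 posterior members, and none of the 9 HoxC members. These counts are those of DKO+Dnmt3a2 alone. In DKO+Dnmt3a1 the members above DKO were 10 of 12 anterior, 10 of 11 central and 13 of 16 posterior ones. This uneven spread was seen in the values first and has no test of its own.

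Fibroblast transcripts were lower in both lines than in DKO. In DKO+Dnmt3a1, 33 of 39 Hox members were above DKO, against 44.2% of all genes, with a median log2 difference of 0.47. Of the 30 fibroblast markers 23 were below DKO, with a median of -0.52. In DKO+Dnmt3a2, 15 members were above DKO, against 38.2% of all genes, and 23 below, with a median of -0.10. In this line 28 of 30 fibroblast markers were below DKO, with a median of -2.11. Hoxa5, the member with the largest mean difference in log2(RPKM + 0.5), stood at 0.197 RPKM in DKO, 1.33 RPKM in DKO+Dnmt3a1 and 0.977 RPKM in DKO+Dnmt3a2.

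The comparison of the mean of these 2 lines with DKO was chosen after the values were seen. Hoxa5 stood at 1.24 ± 0.37 (limma adjusted p = 0.155) and Hoxb2 at 0.88 ± 0.39 (limma adjusted p = 0.263). By limma 0 of 28 members were called, against 0.0351% of all genes, and 1 had an unadjusted p under 0.05, against 21.9% of all genes. Over all 39 members the median was 0.45 for anterior, 0.25 for central and 0 for posterior genes, against -0.01 over all genes and -1.35 over the fibroblast markers tested. Each of the 3 DKO lines had 1 library, and all of the differences share the single DKO library.

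**Figure D4:**
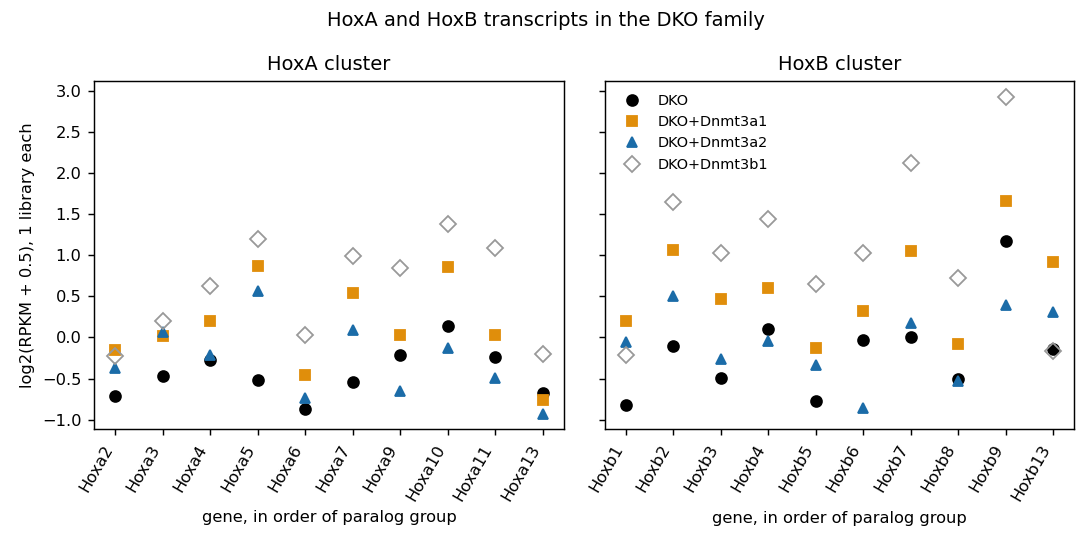
Levels of HoxA (left, 10 of 11) and HoxB (right) transcripts in the 4 DKO family libraries, as log2(RPKM + 0.5) against gene in the order of paralog groups, with 1 symbol per library. DKO (filled circles) lies below both Dnmt3a lines from Hoxa2 to Hoxa7 and above DKO+Dnmt3a2 from Hoxa9 on, as for Hoxa5 at 0.197, 1.33 and 0.977 RPKM and Hoxa9 at 0.362, 0.519 and 0.136 RPKM.

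In the TKO family the same comparison gave medians of smaller size for anterior and central genes, but not for posterior genes. All 4 TKO+Dnmt3a libraries lay below TKO in 8 of 39 members, under the 23.7% of all genes, among them Hoxa3, Hoxa9, Hoxd9 and Hoxd13. The mean of TKO+Dnmt3a1 and TKO+Dnmt3a2 against TKO gave a median of -0.03 over all 39 members (0.07 for anterior, -0.03 for central and -0.11 for posterior genes) and no call by limma, 0 of 28 against 0% of all genes. Of the 28 members 2 had an unadjusted p under 0.05, against 9.75% of all genes. Hoxa3, which patterns pharyngeal organs such as the thymus, had both orders, above DKO in the DKO lines and below TKO in the TKO lines, as did 5.71% of all genes. In the test of the difference between the families by limma, 0 of 28 members were called, against 0% of all genes. At an unadjusted p under 0.05 there was 1 member, against 12.1% of all genes.

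DKO+Dnmt3a2, the library with the least fibroblast RNA, lay below each of the other 10 libraries in 18 of 39 members (46.2%), against 16.3% of all genes. The 18 were 1 of 12 anterior members, Hoxc4, 6 of 11 central and 11 of 16 posterior members, and 6 of the 9 HoxC members. Measured from the median of the other 10 libraries, the median log2 difference was -0.22 for anterior, -0.41 for central and -0.57 for posterior members, -1.81 for the 30 fibroblast markers and -0.04 for all genes. On the scale of log2(RPKM + 0.5), which makes differences of low genes smaller, Hoxc8 lay farthest below. Hoxc8 was at 0.117 RPKM in this library against 1 RPKM or more in every other. Hoxb6 was at 0.052 RPKM, against a median of 0.722 RPKM in the other 10. Hoxc11 was listed at 0 here and in DKO and so was not among the 18. At the other end Hoxb1 (0.466 RPKM), Hoxb2 (0.914 RPKM) and Hoxa5 (0.977 RPKM) lay above the median of the other libraries, by 0.80, 0.32 and 0.17. The posterior Hoxb13 (0.738 RPKM) followed at 0.16. There is 1 such library and no test.

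**Figure D5:**
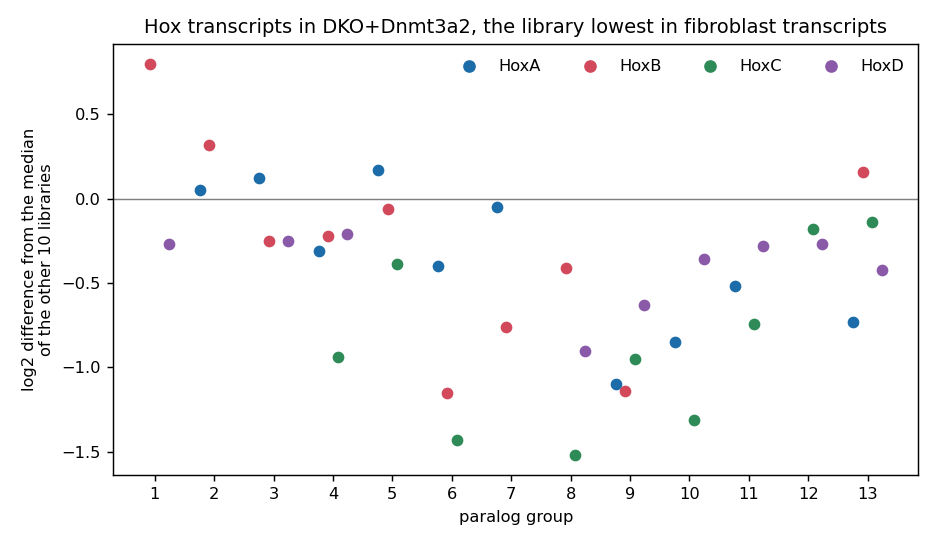
Log2 difference of DKO+Dnmt3a2 from the median of the other 10 libraries (vertical axis) for 38 of the 39 members by paralog group (horizontal axis) and cluster (colour). Most anterior members lie within 0.5 of the line at 0, with Hoxb1 above it, while Hoxb6, Hoxc6, Hoxc8, Hoxc10, Hoxa9 and Hoxb9 lie more than 1 below it.

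The paired libraries show how far Hox levels moved within a genotype. TKO+Dnmt3a2 replicate 1 was above replicate 2 in 38 of 39 members, with a median log2 difference of 0.42, although 49.9% of all genes were higher there. Its fibroblast markers were higher in 28 of 30, with a median of 0.72. Hoxc6, at 5.97 and 2.16 RPKM, and Hoxb9, at 4.53 and 1.96 RPKM, differed more within this pair than between WT and TKO. The TKO+Dnmt3a1 replicates were closer, with 24 of 39 members higher in replicate 1 (against 44.5% of all genes), a median of 0.09 and a fibroblast median of 0.22.

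Genes that work with Hox proteins or lie beside the clusters were followed for comparison. Of the 9 TALE cofactors, homeodomain proteins that bind DNA together with Hox proteins, all were tested. With Dnmt3b1 against Dnmt3a, 3 of the 9 rose and none fell by limma (6 above and 3 below 0, median 0.06), against 20.7% of all genes called. Meis2 rose by 1.20 ± 0.26 and Meis3 by 1.22 ± 0.30 by limma. Between the families 1 was called higher and 1 lower in TKO, against 21% of all genes called, and Pbx2 was the higher one, by 0.34 ± 0.09. Of the 12 upstream regulators 11 were in the table and 7 were tested. Rarg, a retinoic acid receptor, was the 1 of these 7 called when any enzyme was put back, against 3.93% of all genes, and rose by 1.06 ± 0.24 (limma adjusted p = 0.0486). It stood at 37.4 RPKM in TKO and 34.6 RPKM in DKO, against 107, 108 and 91.0 RPKM in DKO+Dnmt3a1, DKO+Dnmt3a2 and DKO+Dnmt3b1, 47.8 to 74.4 RPKM in the TKO lines with an enzyme and 66.8 RPKM in WT. The call was lost in 8 of the 10 fits that left out 1 library, as without DKO, where Rarg stood at 0.62 (limma adjusted p = 0.304), and was kept without TKO or TKO+Dnmt3a2 replicate 2. DKO was likewise the lowest library of its family for Hoxb1 and Hoxa5. However, DKO lay below both of its Dnmt3a lines in 15 of 39 members and in 32.9% of all genes. A link between Rarg and Hox levels was not tested. Gdf11, a signal for posterior Hox genes, rose with Dnmt3b1 against Dnmt3a by 1.19 ± 0.29, 1 of the 7 regulators tested against 20.7% of all genes called. Cdx1, an activator of central Hox genes, was higher in the TKO than in the DKO family by 1.48 ± 0.27, 1 of 7 tested against 21% of all genes called. It stood at 3.97 to 7.71 RPKM in the 4 TKO+Dnmt3a libraries, 1.87 RPKM in TKO+Dnmt3b1 and 0.936 RPKM in TKO, against 0.48 to 1.23 RPKM in the DKO family, so that the TKO parent lay within the range of the DKO family, and WT stood at 5.72 RPKM. Without DKO+Dnmt3a2 the Cdx1 call was lost (1.30, limma adjusted p = 0.057). Cdx2 and Cdx4 stayed at or below 0.565 and 0.191 RPKM in every library.

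Of 11 neighbours of the clusters found among the measured genes, 8 were tested, and between Dnmt3b1 and Dnmt3a 3 were higher and 5 lower, with a median of -0.10. Hibadh, beside HoxA, fell when any enzyme was put back, by 1.01 ± 0.19 on the log2 scale, 1 of 8 against 3.93% of all genes called. Calcoco2 and Snx11, beside HoxB, were higher in the TKO than in the DKO family, by 1.84 ± 0.18 and 0.51 ± 0.13, with Calcoco2 at 21.0 to 43.3 RPKM in the TKO family, 6.74 to 10.2 RPKM in the DKO family and 5.80 RPKM in WT. They were 2 of 8 neighbours tested, near the 21% of all genes called. With chromosome medians removed Hibadh stood at -0.79 and Snx11 at 0.16, and neither was called, while Calcoco2 stood at 1.49 and was. Of 5 other transcripts of the clusters, Hoxa11os, the antisense partner of Hoxa11, reached the filter and rose with Dnmt3b1 against Dnmt3a by 1.04 ± 0.28, beside 1.20 ± 0.30 for Hoxa11. The library kit keeps no strand, so that reads of these partners cannot be told apart. The RefSeq spans of 10 members overlap that of another member, as Hoxa3 with Hoxa4, Hoxa5 and Hoxa6, Hoxb3 with Hoxb4, Hoxd3 with Hoxd4 and Hoxd10 with Hoxd11, and reads there are likewise uncertain. Of the calls in these lists, that of Calcoco2 was kept in all 10 fits that left out 1 library, those of Meis2, Meis3 and Gdf11 in 8, 7 and 7 (lost without either Dnmt3b1 library), and those of Snx11, Hoxa11os, Hibadh and Pbx2 in 4, 4, 2 and 2.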

How the data were processed

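PolyA RNA libraries were made with the TruSeq RNA kit v2, per the labels' protocols, and the submitters' processing notes name bcl2fastq 1.8.4, STAR 2.4.0 and the genome build mm9. The deposited values are RPKM per gene, made by the authors, with 3 decimals. The counting tool, gene lengths and strand setting are not given in the sources used here. The table held 0 other per-sample columns.

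Values were taken as log2(RPKM + 0.5), which makes differences of low genes smaller, and the test took in the 14229 genes that reached 1 RPKM in any library. limma 3.58.1 (lmFit, eBayes with trend) in R 4.3.3 gave two-sided p-values with Benjamini-Hochberg adjustment over all genes tested, called under 0.05. TKO and DKO against WT were fitted with 9 group means (2 residual degrees of freedom), and the comparisons across families on 10 libraries with family and enzyme as additive terms (5 residual degrees of freedom). In the additive fits the spread holds the replicate pairs and also any difference between the families in their response to an enzyme. Because the unit is RPKM, no count test was used. The fits were tested on simulated data, but the outcome is not given here.

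Depth was the total at which the most values of transcripts up to 400 nt were whole reads of up to 5, within 0.05; 98.9% to 100.0% were whole. A difference near 1 read is within counting error. Chromosomes came from RefSeq GRCm38.p6 by transcript accession (96.4% matched), names only. Python 3.11.15 with pandas 2.3.3 was used elsewhere.

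The members, gene lists, tests and rules were chosen with earlier results of these data known. Every library's value is given for members called in any of the 5 planned comparisons, the highest 2 of each cluster, and Hoxb1, Hoxb13 and Hoxc13; the other members described singly were chosen after their values were seen, as were the 3 comparisons of Dnmt3a within and between families. The single values of 1 member and of 1 other listed gene are not reported here, while counts and sums include them. Alternatives were other pseudocounts (0.1 and 1), filters, scalings, chromosome medians, a replicate block, a fibroblast covariate and each library left out.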

Additional observations from a re-analysis of the deposited data

How the results depend on the processing

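Counts of genes called by limma, and of Hox members where given, moved as follows. Dnmt3b1 against Dnmt3a (2943 genes, 21 members) fell to 0 and 0 with the fibroblast covariate, where Hoxb9 (-0.01), Hoxc6 (-0.09) and Hoxc4 (-0.12) changed sign, and ran from 77 to 3338 genes and 0 to 22 members with 1 library left out. Of the 21 members, 21 were kept with chromosome medians removed or median ratio scaling, 17 with quantile normalization, 18 at a pseudocount of 0.1, 19 without the filter, and 14 with 1 RPKM asked of a library without Dnmt3b1 (2462 genes), which was chosen after seeing the data. Any enzyme against parents (559 genes, 0 members) gave 173 without the filter, 64 with the fibroblast covariate, 3 without both Dnmt3b1 libraries and 0 to 867 with 1 library left out; removing chromosome medians gave 1 member. The families (2990 genes, 1 member) gave 5 members without the filter, 0 with quantile normalization, 1264 genes and 0 members with the covariate, 1794 genes without both Dnmt3b1 libraries, and 651 to 3245 genes and 0 to 1 members with 1 library left out. TKO against WT (49 genes) gave 76 with 1 RPKM asked of 2 libraries, 81 with chromosome medians removed, 12 with median ratio scaling, 0 with quantile normalization and 0 to 0 with 1 library left out; DKO against WT (0) gave 71 without the filter. Of the comparisons added later, Dnmt3a in DKO (5 genes) gave 9 at a pseudocount of 0.1, 111 without the filter, 50 with 1 RPKM asked of 2 libraries, 58 with chromosome medians removed and 0 to 4 with 1 library left out; Dnmt3a in TKO (0) gave 35 without the filter; and their difference (0) gave 82 without the filter, 4 with chromosome medians removed and 0 to 1 with 1 library left out. With the replicate number as a block, 1415 genes and 1 member were called for any enzyme, 1992 and 13 for Dnmt3b1 against Dnmt3a, 1689 and 0 for the families, 307 for TKO, 60 for DKO, 626 for Dnmt3a in DKO and 25 for the difference. The numbers do not pair the samples as far as known: the replicate differences of the 2 replicated lines had r = 0.09 across genes, which are not independent. Apart from the covariate, whose cause was not tested, low counts limit the result: members under 1 RPKM rest on few reads, and with 1 line per genotype the spread between lines of a genotype was not measured.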
